A study of Mus musculus with 16 samples.

Results

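The libraries labelled RGS4 KO form 8 of the 16 in the series, 4 made after CFA and 4 from naive mice, and the comparison of these 2 groups is described here across all 18350 genes that passed a filter on low counts. They were chosen by their titles, genotype label and treatment label. Both groups are mouse brain punches labelled as ventral posterolateral thalamic nuclei, and each library pooled punches from 2 mice, so a library is a pool and not an animal. The genotype label of all 8 is RGS4 KO, while the series text describes a floxed Rgs4 gene that was to be lowered by an adeno-associated virus carrying Cre, which acts only in cells that the virus reaches. The labels give neither age, strain, dose nor time after CFA, and do not spell the abbreviation out. CFA is the usual short form of complete Freund's adjuvant, which causes lasting inflammation where it is injected. The other 8 libraries, 4 wild type naive and 4 wild type after CFA, are used for the difference between genotypes.

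The ventral posterolateral nucleus relays touch, temperature and pain signals from the body to the somatosensory cortex, mostly through glutamatergic neurons. RGS4 is a GTPase-activating protein that shortens signalling by Gi/o and Gq proteins, the partners of opioid and metabotropic glutamate receptors among others. The endoplasmic reticulum (ER) stress pathway raises chaperones such as BiP when unfolded protein builds up, and the sterol pathway is raised by SREBP2 when membrane cholesterol is low.

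Levels are CPM, the usual rate of counts scaled to a common library total, here on TMM-scaled library sizes. A call means an adjusted p below 0.05 (Benjamini-Hochberg, over the whole table) in edgeR's quasi-likelihood test, which was fitted to all 16 libraries, and fold changes and their standard errors (SE) come from that fit. The naive libraries, numbered 5 to 8, held 18.1 to 43.7 M (mega) counts, and the CFA libraries, numbered 13 to 16, held 24.4 to 78.8 M. The 4 naive libraries varied more among themselves than the 4 CFA libraries, with biological coefficients of variation of 7.09% and 5.44%.

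No loss of Rgs4 against wild type was detected, so the label is kept as a label throughout. Its level was 78, 80.5, 82.1 and 84.5 CPM in the naive libraries and 77.5, 82.2, 86.4 and 90.2 CPM in the CFA libraries. The 2 ranges overlapped, with a log2 change of 0.05 (SE 0.05, adjusted p = 0.892; exact two-sided permutation p = 0.4, where 4 against 4 libraries allow no p below 0.0286). In wild type Rgs4 was at 77.3 to 85.2 CPM (median 80.5) in naive and 81.1 to 96.8 CPM (median 89.7) in CFA libraries. The libraries labelled RGS4 KO had a median of 81.3 CPM in naive, and of 84.3 CPM in CFA libraries, below that of wild type, with overlapping ranges in both. The exact two-sided permutation p of the difference from wild type was 0.886 in naive and 0.229 in CFA libraries. A loss of single exons would not be seen in gene totals. The female label of all samples and the male mice of the protocol differ, and the X-inactivation transcript Xist was between 560 and 750 CPM in every library.

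The tissue markers were mixed. The vesicular glutamate transporter gene Slc17a6 was at 432 to 535 CPM and the thalamic transcription factor gene Tcf7l2 at 114 to 179 CPM in the 8 libraries, but Prkcd, a marker of somatosensory relay neurons, was at only 9.82 to 16.9 CPM. Tph2, the serotonin-synthesizing enzyme of raphe neurons, which are not part of the thalamus, reached 101 to 438 CPM in naive and 293 to 431 CPM in CFA libraries. The summed level of 14 serotonin neuron genes was 552, 999, 1458 and 444 CPM in naive libraries 5 to 8, and 1300, 1056, 1030 and 1468 CPM in CFA libraries 13 to 16. Naive libraries 5, 6 and 8 were therefore below every CFA library, library 6 by little, while naive library 7 was within the CFA range. Naive libraries 7 and 8 held the highest and the lowest of these sums among the naive libraries. The summed level of 25 oligodendrocyte genes was 10055, 10226, 8246 and 13124 CPM in naive libraries and 10985, 10609, 8323 and 8256 CPM in CFA libraries, so library 8 stood highest. In bulk tissue, fewer cells of a type and less RNA per cell cannot be told apart. The part of these cell types in the changes below was not tested beyond the fits given with the counts.

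**Figure D1:**
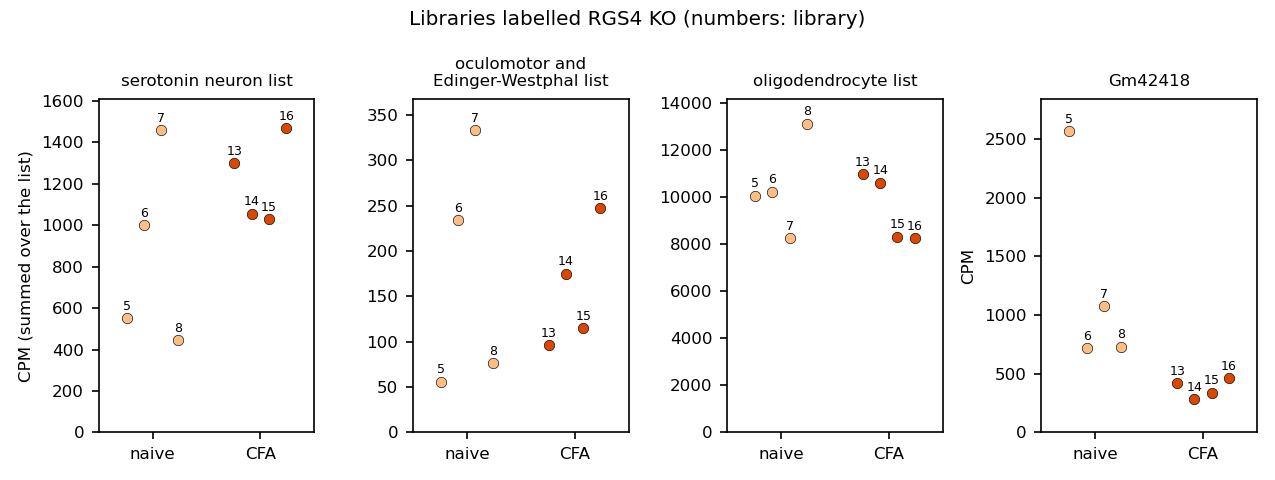
Summed CPM of the serotonin neuron, oculomotor and Edinger-Westphal, and oligodendrocyte lists, and CPM of Gm42418, in the 8 libraries labelled RGS4 KO; each point is a library with its number, and the horizontal axis gives the treatment. The serotonin neuron sum spans 444 to 1458 CPM in naive and 1030 to 1468 CPM in CFA libraries, and Gm42418 is higher in every naive library than in every CFA library.

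The comparison asked which genes differ after CFA in mice of this label. Few did, and most by a small amount. Of 18350 genes 34 were called (0.185%), 18 higher after CFA (0.0981%) and 16 lower (0.0872%). The median size of the 34 changes was 0.35 on the log2 scale, against 0.06 over all genes, 8 exceeded 0.5, and 1, Mcmdc2, exceeded 2-fold. In all 34 the CFA libraries did not overlap the naive libraries, which was true of 788 genes (4.29%) over the whole table. At an unadjusted p under 0.05 the test passed 1433 genes (7.81%), 694 higher and 739 lower. The count was 91 in DESeq2, which included all 34, and 69 with the oligodendrocyte level as a covariate. It was 17 without naive libraries 7 and 8, of which 13 were among the 34, 19 without CFA library 13, and 16 without naive library 6, CFA library 15 or CFA library 16. Of the 34 calls, 11 held in all 8 fits that left out 1 library, namely Hjurp, Mcmdc2, Galnt18, Pde10a, Id2, Svil, Hr, Ppp1r10, Gm11410, Gm11512 and the unnamed gene ENSMUSG00000094114.

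**Figure D2:**
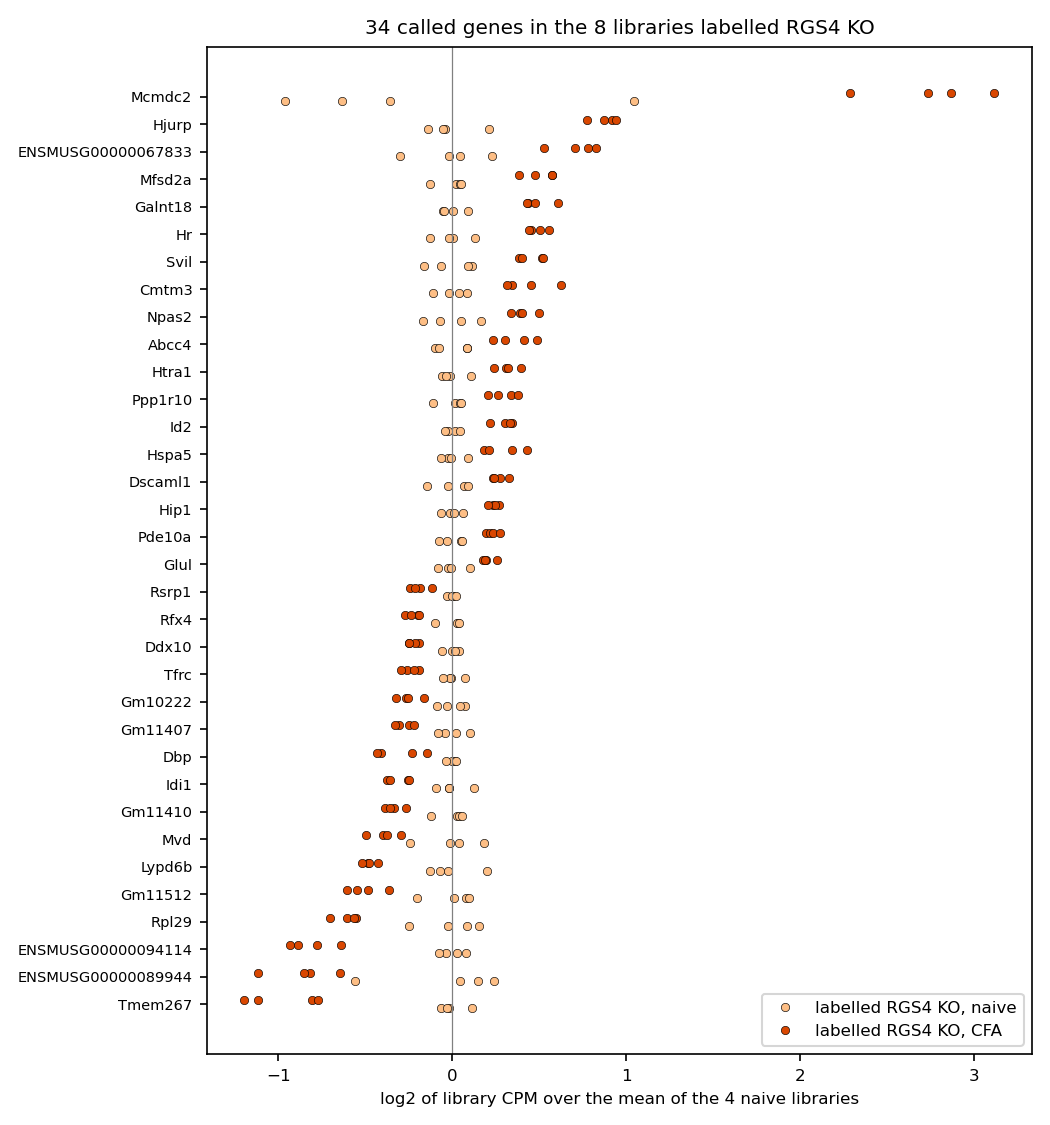
Each row is 1 of the 34 called genes, each point a library labelled RGS4 KO, and the horizontal axis the log2 ratio of its CPM to the mean of the 4 naive libraries. Every CFA point lies outside the range of the naive points of its row, and Mcmdc2 and Hjurp have the largest rises.

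The 2 genes with the lowest p were Hjurp and Mcmdc2, both on chromosome 1. Hjurp encodes the chaperone that loads the histone CENP-A at centromeres, and lies on the minus strand at 88262471 to 88277633 in mm10. It was at 50.1, 39.3, 41.9 and 41.7 CPM in naive libraries and 73.9, 81.6, 83.1 and 79.3 CPM in CFA libraries, with a gap between the groups larger than the spread in either. Hjurp rose 1.82-fold (log2 0.87, SE 0.07, adjusted p = 4.89e-06). In wild type it stood at 193.8 ± 13.5 CPM in naive and 190.1 ± 3.37 CPM in CFA libraries (SD, n = 4 each), so both groups labelled RGS4 KO lay well below wild type and the CFA libraries less so.

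Mcmdc2 encodes a protein related to replicative helicases that acts in meiotic recombination, and lies on the plus strand at 9908638 to 9942085. It was at 0.069, 0.086, 0.28 and 0.10 CPM in naive libraries, which rest on 3, 2, 5 and 3 counts, and at 0.89, 0.98, 0.65 and 1.16 CPM in CFA libraries. The CFA libraries were all above the naive ones, at levels near the detection limit. The ratio of the summed rates was 8.21, with an exact 95% counting interval of 4.68 to 15.7 that does not include the spread between libraries, and the fitted log2 change was 2.99 (SE 0.32, adjusted p = 1.22e-04). Wild type held 2.93 ± 0.363 CPM in naive and 3.01 ± 0.41 CPM in CFA libraries (SD, n = 4 each). Mcmdc2 overlaps Snhg6 in position, and the library kit does not mark strand, so its reads cannot be assigned with certainty.

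Hjurp and Mcmdc2 were also the 2 called genes whose CFA change differed from that in wild type by the interaction test. The difference of the log2 changes, labelled RGS4 KO minus wild type, was 0.89 for Hjurp (SE 0.09, adjusted p = 2.75e-04) and 2.95 for Mcmdc2 (SE 0.36, adjusted p = 8.92e-04). Both held in all 16 fits that left out 1 library.

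Of the other 32 called genes, 21 were also called after CFA in wild type, in the same direction in each case. That is 61.8% of the 34 calls and 5.13% of the 409 wild type calls (2.23% of genes, with 1.42% higher and 0.807% lower). In all, 31 of the 34 had the same sign in both comparisons, while 52.9% of all genes did. The comparisons share no libraries, but both use the same estimate of each gene's spread, so their calls are not independent. With the 8 libraries labelled RGS4 KO alone 25 genes were called, of which 21 were among the 34. The 3 with opposite signs were Hjurp, Tfrc and Gm10222. Read the other way, 283 of the 409 wild type calls (69.2%) had the same sign in libraries labelled RGS4 KO, with smaller changes. The 261 genes called higher in wild type had a median log2 change of 0.28 there and 0.06 here, and the 148 called lower had medians of -0.24 and -0.05. These genes were selected on their wild type values, so the medians are given as a description, and the interaction test called 9 of the 409.

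**Figure D3:**
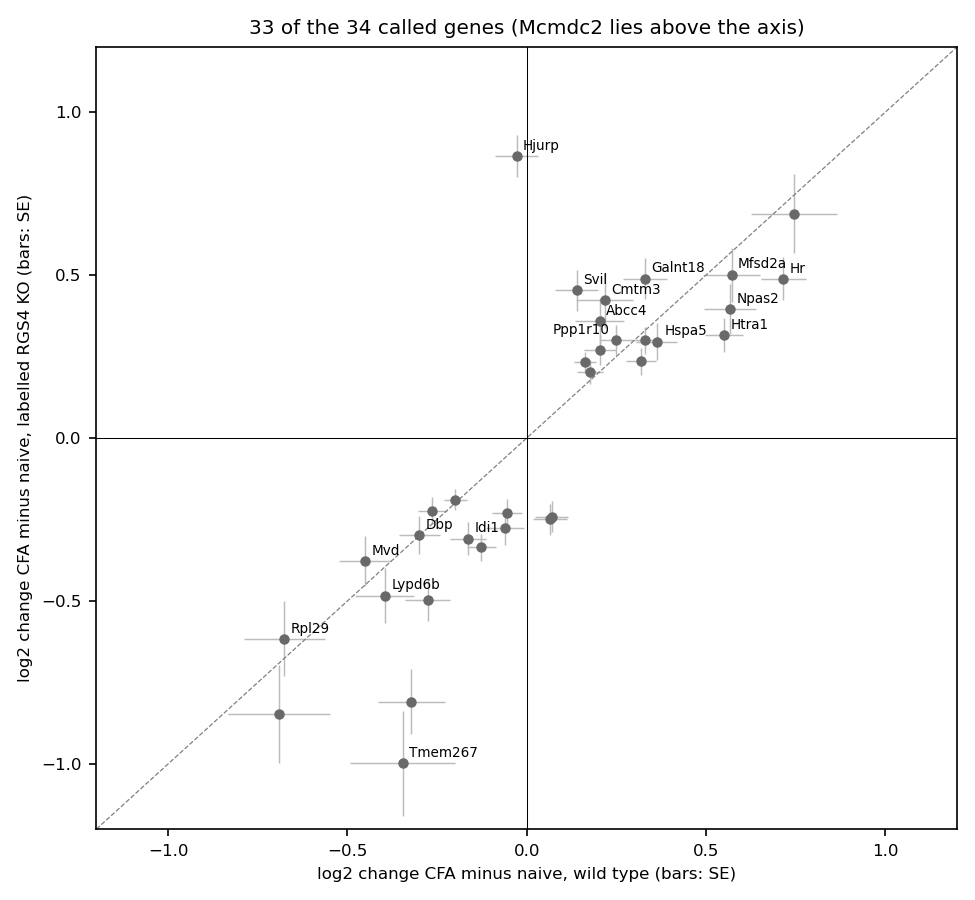
Fitted log2 change after CFA in wild type (horizontal) and in libraries labelled RGS4 KO (vertical) for 33 of the 34 called genes, with SE bars and a dashed line of equal change. Hjurp lies farthest from the line, with 0.87 in libraries labelled RGS4 KO against -0.03 in wild type. Others also lie off it, among them Tmem267 (-0.997 against -0.35), ENSMUSG00000094114 (-0.81 against -0.32) and Svil (0.45 against 0.14).

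Among the called genes that rose were regulators of transcription. Id2, an inhibitor of basic helix-loop-helix factors, was at 46.1, 44.8, 44.4 and 47.1 CPM in naive and 57.8, 56.2, 53 and 57.4 CPM in CFA libraries. The lowest CFA library was above the highest naive library by more than the naive range, and Id2 rose 1.23-fold (log2 0.30, SE 0.04, adjusted p = 0.00146), against 0.33 in wild type. Hr, a nuclear receptor corepressor, was at 36.9, 40.2, 36.2 and 33.6 CPM in naive and 50.2, 49.9, 53.9 and 52.1 CPM in CFA libraries. Hr rose 1.40-fold (log2 0.49, SE 0.07, adjusted p = 0.00146), against 0.72 in wild type. Ppp1r10, a nuclear subunit that targets protein phosphatase 1, rose 1.23-fold from a mean of 44.3 to 54.5 CPM (adjusted p = 0.00421), with an adjusted p of 0.0303 at most when 1 library was left out.

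Among enzymes and structural proteins, Pde10a, a phosphodiesterase that breaks down cAMP and cGMP and is best known from striatal neurons, was at 73.1, 77.5, 77.7 and 71.1 CPM in naive and 85.7, 87, 88.1 and 90.4 CPM in CFA libraries. All CFA libraries were higher, and the rise was 1.17-fold (log2 0.23, SE 0.03, adjusted p = 0.00142). Of 13 tested genes of the striatum and amygdala list, Pde10a was the only member called, and the median log2 change of the list was 0.01. Galnt18, of the family of enzymes that start O-linked glycans, rose 1.40-fold from a mean of 12.3 to 17.3 CPM (log2 0.49, SE 0.06, adjusted p = 8.56e-04). Svil, an actin-binding protein, rose 1.37-fold from 12.1 to 16.6 CPM (log2 0.45, SE 0.06, adjusted p = 0.00146). In wild type its log2 change was 0.14 (adjusted p = 0.23), and the difference between genotypes did not pass the test (adjusted p = 0.223).

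The remaining named genes that rose did so by 1.15 to 1.42-fold, and each lost its call in at least 2 of the 8 fits that left out 1 library. Cmtm3 lost it in all 8, Abcc4 in 6, Hip1 in 4, Htra1 in 3 and Dscaml1 in 2. They were Dscaml1, a cell adhesion gene (1.21-fold), Htra1, a secreted protease (1.24-fold, overlapping Fgfr2), Hip1, a clathrin adaptor (1.18-fold), Abcc4, an efflux transporter (1.28-fold), Cmtm3 (1.34-fold), Glul, Mfsd2a, Npas2 and Hspa5. Dscaml1 had an adjusted p of 0.012 in the full fit and 0.0642 without naive library 6, the library whose omission also gave the highest adjusted p for Htra1 (0.0125 and 0.0716), Hip1 (0.0158 and 0.107), Abcc4 (0.0359 and 0.181) and Cmtm3 (0.0396 and 0.129). The gene ENSMUSG00000067833, which has no symbol, rose 1.61-fold from 3.61 to 5.91 CPM (adjusted p = 0.0155, and 0.0643 without naive library 5).

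Of the genes of protein folding in the ER, 1 was called and most others had values above 0. Hspa5, which encodes BiP, the main ER chaperone, was at 314, 306, 341 and 318 CPM in naive and 363, 370, 431 and 406 CPM in CFA libraries. The lowest CFA library was above the highest naive library, and Hspa5 rose 1.23-fold (log2 0.30, SE 0.06, adjusted p = 0.0414), against 0.36 in wild type. In 5 of the 8 fits with a library omitted it was no longer called, with an adjusted p of 0.181 without naive library 6. Of 33 tested members of the ER chaperone and unfolded protein response list, 26 had a change above 0 and 12 passed an unadjusted p under 0.05, all higher, against 3.78% of all genes in that direction. The median log2 change was 0.08, against -0.002 over all genes and 0.10 for the list in wild type, where 11 members were called. Sdf2l1, part of the ER chaperone complex, was at 6.62 to 7.25 CPM in naive and 8.78 to 11.1 CPM in CFA libraries without passing the threshold (log2 0.54, adjusted p = 0.079). The disulfide isomerase genes Pdia4 and Pdia6 had log2 values of 0.22 (adjusted p = 0.129) and 0.17 (adjusted p = 0.2).

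Of the genes of sterol and fatty acid synthesis, 2 fell and nearly all others had values below 0. Idi1 encodes the isomerase that makes dimethylallyl diphosphate, and Mvd encodes the decarboxylase that makes isopentenyl diphosphate just before it. Idi1 was at 77.7, 81.8, 82 and 90.3 CPM in naive and 64, 69.6, 69.7 and 64.8 CPM in CFA libraries. Mvd was at 20.4, 24, 24.9 and 27.5 CPM in naive and 18.4, 19.8, 17.2 and 18.6 CPM in CFA libraries, where naive library 5 came within 1 CPM of the highest CFA library. Idi1 fell by 0.31 (SE 0.05, adjusted p = 0.012) and Mvd fell by 0.38 (SE 0.08, adjusted p = 0.0445) on the log2 scale. Idi1 lost its call without CFA library 16 (adjusted p = 0.0598) and in 1 other such fit, and Mvd lost it in 7 of 8 (0.16 without naive library 6). Reads of Idi1 may be shared with its copy Gm13502.

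Of 36 tested members of the sterol and fatty acid synthesis list, 33 had a change below 0 and 15 passed an unadjusted p under 0.05, all lower, against 4.03% of all genes in that direction. In 7 members every CFA library was below every naive library (2.17% of all genes). The count of 15 ranged from 11 to 21 when 1 library was left out, and the median log2 change was -0.10, against -0.11 in wild type. Hmgcs1, the synthase ahead of HMG-CoA reductase, was at 361, 407, 400 and 406 CPM in naive and 333, 360, 342 and 320 CPM in CFA libraries (log2 -0.22, adjusted p = 0.0621). Dhcr7, which makes cholesterol from its direct precursor, had a log2 value of -0.25 (adjusted p = 0.09). It shares a near-identical stretch with 22 other genes, 7 of them tested, so some of its reads could be shared.

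The promoters of Hspa5, Idi1 and Mvd are shown because these 3 genes are the called members of the ER and sterol groups, and both groups are known to use the CCAAT box bound by NF-Y. Each line gives the 250 bases before a RefSeq start (GRCm38.p6, the same build as mm10), read along the gene's strand, with every CCAAT or its reverse complement ATTGG in capitals.
Hspa5 (chr2:34771840-34772089, plus strand): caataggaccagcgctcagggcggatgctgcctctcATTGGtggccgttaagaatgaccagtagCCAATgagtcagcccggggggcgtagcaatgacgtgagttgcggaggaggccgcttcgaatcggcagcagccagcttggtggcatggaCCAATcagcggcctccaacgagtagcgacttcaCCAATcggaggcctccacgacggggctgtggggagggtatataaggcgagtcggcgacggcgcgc
Idi1 (chr13:8885356-8885605, plus strand): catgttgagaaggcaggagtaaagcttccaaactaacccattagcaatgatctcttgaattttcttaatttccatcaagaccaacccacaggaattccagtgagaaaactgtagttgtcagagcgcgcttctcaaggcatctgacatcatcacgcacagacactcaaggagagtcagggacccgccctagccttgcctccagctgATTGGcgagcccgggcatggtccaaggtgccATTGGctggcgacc
Mvd (chr8:122443423-122443672, minus strand): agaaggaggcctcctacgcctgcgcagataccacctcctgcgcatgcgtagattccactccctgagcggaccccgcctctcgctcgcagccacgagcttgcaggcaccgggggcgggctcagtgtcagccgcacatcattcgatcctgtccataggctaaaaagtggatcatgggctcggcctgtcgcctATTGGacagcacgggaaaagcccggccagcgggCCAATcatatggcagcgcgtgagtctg

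Hspa5 held 4 such boxes, and Idi1 and Mvd held 2 each. Over windows of 250 bases before to 50 after the start, on both strands, CCAAT was present in 82.1% of 28 promoters of the ER list and 74.2% of 31 promoters of the sterol list, against 37.4% of all 32851 promoters. CCAAT was also in 63% of 27 clock list promoters, 55.6% of 27 promoters of called genes and 38.2% of 34 cytosolic heat shock promoters. The sterol element TCACNCCAC, a motif chosen after the data were seen, was in 1 of the 31 sterol list promoters (3.23%) and 1.24% of all. It was also in 1 of the 28 ER list promoters (3.57%). These are matches of letters, and neither binding nor a part in the changes was tested.

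No cytosolic heat shock gene was called, where 0.185% of all genes were. Of 32 tested members 9 passed an unadjusted p under 0.05, all higher (3.78% of all genes), with a median log2 change of 0.05 against 0.08 in wild type, where 7 were called. Hspa1b, an inducible Hsp70 gene, was at 1.17, 1.56, 0.828 and 2.23 CPM in naive and 2.86, 2.1, 5.5 and 3.51 CPM in CFA libraries (log2 1.19, adjusted p = 0.313), so the groups overlapped. Hspa1b and Hspa1a are near-identical copies. Hsph1, a co-chaperone of Hsp70, was at 324 to 376 CPM in naive and 364 to 396 CPM in CFA libraries (log2 0.14, adjusted p = 0.265). The heat shock motif GAANNTTC was in 44.1% of 34 promoters of the list and 7.86% of all promoters.

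Of 20 tested genes known to be induced by glucocorticoids, 1 was called and most others had values above 0. Mfsd2a, the transporter that carries lysophosphatidylcholine with docosahexaenoic acid across brain endothelium, was at 28.8, 29.2, 29.3 and 25.9 CPM in naive and 36.9, 39.3, 42 and 42.2 CPM in CFA libraries. Mfsd2a rose 1.42-fold (log2 0.50, SE 0.08, adjusted p = 0.0155), against 0.57 in wild type, and lost its call in 5 of 8 fits, with 0.0658 without naive library 8. Of the 20 members 9 passed an unadjusted p under 0.05, all higher, against 3.78% of all genes in that direction. In 7 members every CFA library was above every naive library (2.13% of all genes). The median log2 change was 0.24, against 0.15 in wild type, where 4 members were called higher and 1 lower. The number at an unadjusted p under 0.05 was 5 without naive libraries 7 and 8.

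Larger but less even differences were seen in other members of that list. Plin4, a lipid droplet coat gene, was at 10.9, 8.56, 5.41 and 3.34 CPM in naive and 20.8, 22.9, 23 and 19.7 CPM in CFA libraries. Its naive values spread more than 3-fold while its CFA values were close, and its log2 value of 1.56 (SE 0.35) did not pass the threshold (adjusted p = 0.167). Cdkn1a, the cell cycle inhibitor p21, was at 7.08, 7.7, 10.7 and 6.93 CPM in naive and 13.9, 15.2, 19.1 and 16.6 CPM in CFA libraries (log2 1.02, adjusted p = 0.147). Fkbp5, a co-chaperone of the glucocorticoid receptor, was at 23.1 to 27.7 CPM in naive and 33.5 to 37.7 CPM in CFA libraries (log2 0.49, adjusted p = 0.171). The groups did not overlap in any of these 3 genes. In wild type Plin4, Cdkn1a and Fkbp5 were called, with log2 changes of 1.74, 0.999 and 0.54 (adjusted p = 0.0187, 0.0292 and 0.0236). DESeq2 gave adjusted p-values of 0.00265 for Plin4, 0.00315 for Cdkn1a and 0.0015 for Fkbp5, the lowest of any setting. The highest were 0.665, 0.392 and 0.677. Among 11 alternative settings, DESeq2 included, Plin4 was called by 2, Cdkn1a by 3 and Fkbp5 by 2. Dropping any single library left all 3 genes uncalled.

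Of 23 tested clock genes, 1 was called in each direction. Npas2, which can replace CLOCK as the partner of BMAL1, was at 7.6, 7.01, 6.46 and 6.03 CPM in naive and 8.87, 8.57, 9.58 and 8.93 CPM in CFA libraries. Dbp, a transcription factor driven by that pair, was at 39.5, 39, 39.6 and 38.1 CPM in naive and 35.3, 29.4, 33.3 and 28.9 CPM in CFA libraries. Npas2 rose 1.32-fold (log2 0.40, SE 0.08, adjusted p = 0.0297) and Dbp fell by 0.30 on the log2 scale (SE 0.06, adjusted p = 0.0359), against 0.57 and -0.30 in wild type. Npas2 lost its call in 6 of 8 fits (0.112 without naive library 8) and Dbp in 7 (0.181 without CFA library 16), and Dbp overlaps Sphk2. At an unadjusted p under 0.05 there were 2 clock genes higher and 5 lower, where 3.78% of all genes were higher and 4.03% lower. Rorb, a nuclear receptor of the clock family, was at 18.9 to 21 CPM in naive and 14.5 to 18.1 CPM in CFA libraries (log2 -0.28, adjusted p = 0.115). The hour at which tissue was taken is not in the labels, and its part in these changes was not tested.

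Among the other genes that fell, Tfrc encodes the transferrin receptor that brings iron into cells. It was at 178, 188, 177 and 172 CPM in naive and 149, 156, 153 and 146 CPM in CFA libraries, and fell by 0.24 on the log2 scale (SE 0.05, adjusted p = 0.0318). In wild type the log2 value was 0.07 (adjusted p = 0.466), with a difference between genotypes that missed the threshold (adjusted p = 0.0999). Tfrc lost its call in 6 of 8 fits (0.179 without naive library 6). Rsrp1, an arginine and serine rich nuclear protein, fell by 0.19 (adjusted p = 0.0119, and 0.0562 without CFA library 16) from a mean of 388 to 341 CPM, and was the only called member of 20 RNA splicing and cold-inducible genes. Lypd6b, of the Ly6 family whose members bind nicotinic receptors, fell by 0.48 from 21.8 to 15.7 CPM (adjusted p = 0.0189), and lost its call in 6 of 8 fits (0.0739 without CFA library 13).

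Rfx4, a transcription factor of the RFX family, fell by 0.22 (adjusted p = 0.0248) and the RNA helicase gene Ddx10 fell by 0.23 (adjusted p = 0.0281). Rfx4 lost its call in 7 of 8 fits that left out 1 library (0.12 without naive library 6) and Ddx10 in 6 (0.115 without CFA library 16). Tmem267 fell by 0.997 on the log2 scale from 2.85 to 1.47 CPM (adjusted p = 0.00778, and 0.0559 without CFA library 13) and overlaps another gene. Rpl29, a ribosomal protein gene, fell by 0.62 from 4.86 to 3.19 CPM (adjusted p = 0.0248), and lost its call in 7 of 8 fits (0.133 without naive library 6). Rpl29 has 49 near-identical copies, 8 of them among the genes tested, so its count is uncertain, and it was the only called gene of 82 cytosolic ribosomal proteins. The genes without symbol ENSMUSG00000094114 and ENSMUSG00000089944 fell by 0.81 (adjusted p = 4.35e-04) and 0.85 (adjusted p = 0.0155, and 0.0773 without naive library 5).

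The other 4 genes that fell are pseudogenes, and all 4 resemble mitochondrial transcripts, a grouping noticed after their values were seen. The 37 genes of the mitochondrial chromosome are listed in the count tables with 0 counts in every library. Of 888 tested pseudogenes 9 matched a mitochondrial transcript over at least 100 bases at 90% identity or more. The stretches below set 3 of the called copies beside the mitochondrial transcript each resembles (GENCODE, 80 bases, differing bases in capitals). Each is the gap-free stretch with the most differences, so other such stretches of the match are at least as close.
Gm11410: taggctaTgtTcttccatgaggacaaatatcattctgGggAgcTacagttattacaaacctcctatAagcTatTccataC
mt-Cytb: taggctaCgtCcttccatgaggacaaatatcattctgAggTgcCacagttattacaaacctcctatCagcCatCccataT
Gm11407: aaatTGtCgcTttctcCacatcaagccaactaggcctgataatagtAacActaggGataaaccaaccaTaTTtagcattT
mt-Nd5: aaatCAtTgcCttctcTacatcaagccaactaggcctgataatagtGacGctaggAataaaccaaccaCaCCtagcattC
Gm10222: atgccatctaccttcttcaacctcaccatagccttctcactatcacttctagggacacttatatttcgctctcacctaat
mt-Nd4l: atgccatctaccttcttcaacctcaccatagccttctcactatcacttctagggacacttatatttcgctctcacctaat

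Gm11410 and mt-Cytb differ at 9 of these 80 bases, Gm11407 and mt-Nd5 at 12, and Gm10222 is identical to mt-Nd4l over all its 294 bases. Over the whole match Gm11410 was 92.9% identical to mt-Cytb (1142 bases) and Gm11407 was 92.3% identical to mt-Nd5 (1058 bases). Gm11410 was at 473, 478, 427 and 482 CPM in naive and 387, 356, 368 and 363 CPM in CFA libraries. It fell by 0.33 on the log2 scale (SE 0.04, adjusted p = 4.35e-04), and Gm11512, a copy of mt-Co1, fell by 0.50 (SE 0.06, adjusted p = 0.00146). Gm10222 fell by 0.25 (adjusted p = 0.0279) and Gm11407 by 0.28 (adjusted p = 0.0414), and their calls were lost in 6 of 8 fits (0.134 without naive library 6) and 7 of 8 (0.187 without CFA library 16). Gm11512 also overlaps Stxbp4.

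The summed level of the 9 copies was 27311 to 31274 CPM in naive and 26187 to 27551 CPM in CFA libraries, against 23534 to 25919 and 25791 to 27346 CPM in wild type. The naive libraries labelled RGS4 KO had the highest mean of the 4 groups (29499.6 CPM, against 26597, 24534 and 26350 CPM), but the lowest of them was below the highest CFA library of either genotype. Most of the sum was Gm13340, at a mean of 18891 CPM in naive libraries, whose groups overlapped. All 9 copies had a change below 0, and in 8 every CFA library was below every naive library (2.17% of all genes). Nuclear genes of oxidative phosphorylation had 0 calls among 78 tested, where 0.185% of all genes were called. At an unadjusted p under 0.05, 6 were lower (4.03% of all genes were) and 0 higher. Of the 78 members 67 had a change below 0, and the median log2 change was -0.04, against 0.04 in wild type. In libraries labelled RGS4 KO, 2 other RNAs were higher in every naive than in every CFA library. Gm42418, a predicted gene that overlaps the ribosomal RNA repeat, was at 2567, 716, 1073 and 730 CPM in naive and 419, 281, 339 and 463 CPM in CFA libraries, and Rn7sk, an abundant non-polyadenylated RNA, was at 1.18 to 5.28 CPM in naive and 0.571 to 0.671 CPM in CFA libraries. Neither was called (adjusted p = 0.132 and 0.0551). In wild type Gm42418 was at 388.5 to 480.8 CPM in naive and 295.9 to 522.9 CPM in CFA libraries. Rn7sk was there at 0.436 to 0.951 CPM in naive and 0.471 to 0.652 CPM in CFA libraries. Both RNAs were thus higher in every naive library labelled RGS4 KO than in every library of the other groups. Whether they and the mitochondrial copies move with RNA quality was not tested.

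**Figure D4:**
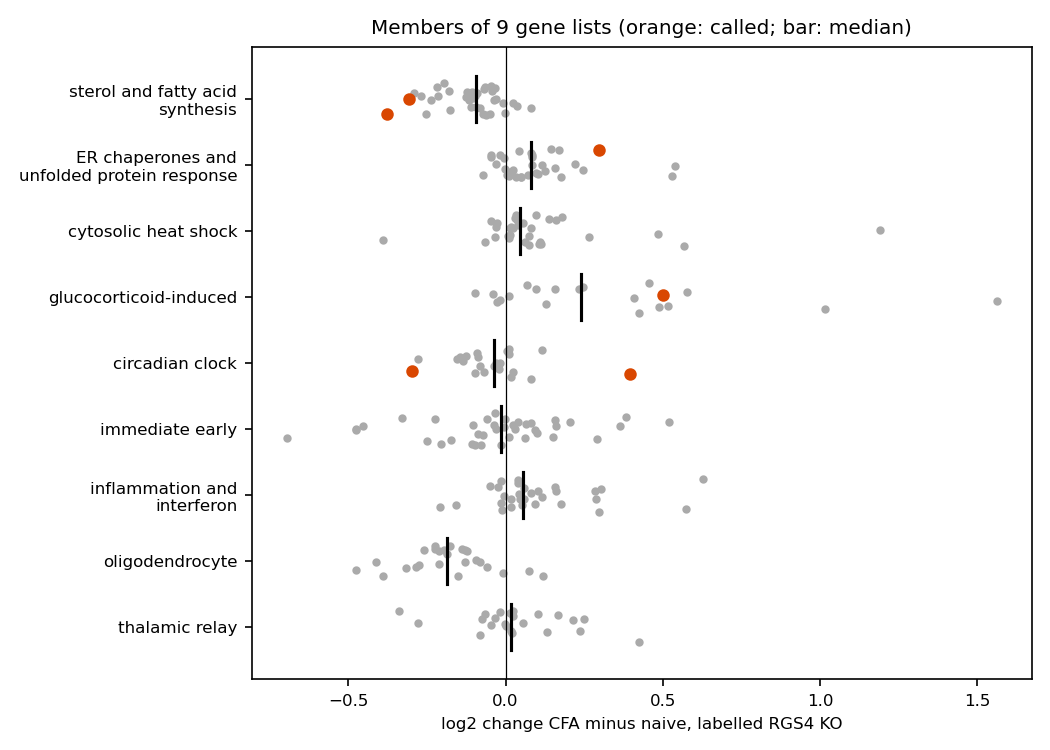
Log2 change after CFA in libraries labelled RGS4 KO for every tested member of 9 gene lists; each point is a gene, called genes are orange, and the vertical bar is the list's median. Sterol genes lie mostly below 0, and ER and glucocorticoid-induced genes mostly above 0.

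No immediate early gene was called among 39 tested (2 higher and 4 lower at an unadjusted p under 0.05, median log2 change -0.01), while 6 fell in wild type. Over all genes 0.185% were called, and 3.78% were higher and 4.03% lower at an unadjusted p under 0.05, so 0 calls here is near the background. Fos, a marker of recent neuronal activity, was at 11.2, 15.9, 13.8 and 24.2 CPM in naive and 8.85, 10.1, 13 and 8.86 CPM in CFA libraries, with overlap between the groups (log2 -0.69, adjusted p = 0.458). Nr4a3, an orphan nuclear receptor, was at 4.23 to 7.21 CPM in naive and 3.66 to 4.04 CPM in CFA libraries (log2 -0.48, adjusted p = 0.313). The difference from wild type was not called for either (adjusted p = 0.769 and 0.755).

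Inflammatory and interferon genes had 0 calls among 30 tested, 2 higher and 0 lower at an unadjusted p under 0.05, near the shares over all genes (0.185% called, 3.78% higher and 4.03% lower). Irf7, an interferon-induced transcription factor, was at 1.11 to 1.27 CPM in naive and 1.55 to 2.08 CPM in CFA libraries (log2 0.58, adjusted p = 0.217). The interleukin-1 receptor gene Il1r1 was at 2.96 to 6.51 CPM in naive and 6.17 to 7.38 CPM in CFA libraries (log2 0.63, adjusted p = 0.346). Complement genes (20 tested) and microglia markers (20 tested) had 0 calls, with median log2 changes of 0.07 and -0.03.

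Glutamine synthetase, Glul, which turns glutamate taken up by astrocytes into glutamine, was the only called gene of 18 astrocyte markers. It was at 1339, 1226, 1178 and 1243 CPM in naive and 1408, 1425, 1487 and 1421 CPM in CFA libraries, and rose 1.15-fold (log2 0.20, SE 0.04, adjusted p = 0.0194), against 0.18 in wild type. Its call was lost in 4 of 8 fits (0.114 without naive library 6), and it has a copy, Glns-ps1. The water channel gene Aqp4 had a log2 value of -0.20 (adjusted p = 0.289) and the gap junction gene Gjb6 a value of 0.24 (adjusted p = 0.146), so the markers did not move as a block. The oligodendrocyte list had 0 calls among 25, with 23 below 0 and a median of -0.19, against 0.19 in wild type. Over all genes 0.185% were called, so counts of calls in lists this short say little about a cell type. Among 19 endothelial genes Mfsd2a was the only call, and the glucose transporter gene Slc2a1 (91.2 to 102 CPM in naive, 110 to 119 CPM in CFA libraries) was not called (log2 0.23, adjusted p = 0.0938).

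Lists of receptor, channel and G protein signalling genes showed 0 calls, which is near the background of 0.185% called over all genes. These were 10 metabotropic glutamate receptor and Homer genes, 7 NMDA receptor, 23 AMPA and kainate receptor, 26 GABA, 8 opioid, 13 serotonin receptor, 19 RGS, 50 G protein signalling, 58 potassium channel and 22 TRP channel genes. Their list medians lay between -0.004 and 0.06. Grm2, a presynaptic glutamate autoreceptor, was at 20.8 to 25.3 CPM in naive and 21.2 to 25.2 CPM in CFA libraries, and Grm8 at 30.2 to 33.4 and 31.8 to 35.6 CPM. The kappa opioid receptor gene Oprk1 was at 28.5 to 31.4 and 26.8 to 29.9 CPM (log2 -0.08, adjusted p = 0.742). Neuropeptide precursors (35), neurotrophin genes (17) and presynaptic and adhesion genes (38) also had 0 calls. Of 23 thalamic relay markers 0 were called, and Prkcd, at 9.82 to 13.3 CPM in naive and 14.3 to 16.9 CPM in CFA libraries, came nearest (log2 0.42, adjusted p = 0.077). In counts simulated at the same depths, 42% of genes changed by 1.2-fold and 90% of genes changed by 1.5-fold were recovered. The changed genes were above 1 CPM, and each gene had 1 spread for all groups and varied independently of the others. The larger spread of the naive libraries and joint shifts of marker genes were thus not simulated. The same simulation changed 50 genes at each of 1.2, 1.5, 2 and 4-fold, and recovered 48 at 2-fold and 48 at 4-fold. More genes were thus called than the 34 here, which makes the cutoff in unadjusted p more lenient. Recovery at the cutoff of these data may be lower.

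The interaction test called 12 genes in all (0.0654%), 2 with a higher CFA change in libraries labelled RGS4 KO (0.0109%) and 10 with a lower one (0.0545%). Of these 10, 9 were called higher after CFA in wild type and 0 were called in libraries labelled RGS4 KO. Ghsr, the ghrelin receptor, was at 6.59, 9.38, 7.29 and 6.24 CPM in naive and 6.36, 6.36, 6.48 and 7.77 CPM in CFA libraries labelled RGS4 KO, and went from 5.29 ± 0.427 to 10.3 ± 0.489 CPM in wild type (SD, n = 4 each). The naive libraries labelled RGS4 KO thus started above the naive wild type libraries. The difference of the log2 changes was -1.07 for Ghsr (adjusted p = 0.00315) and -0.68 for Prss12, a secreted protease of synapses (adjusted p = 0.00435). Both held in all 16 fits that left out 1 library.

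Cbln1, a synapse-organizing secreted protein, was at 19.8, 22.1, 22.1 and 24.4 CPM in naive and 18.3, 18.7, 17 and 15.6 CPM in CFA libraries, below every naive value but not called (log2 -0.34, adjusted p = 0.333). In wild type it rose (log2 0.58, adjusted p = 0.00737), and the difference of -0.92 (adjusted p = 0.0217) lost its call in 6 of 16 fits (0.076 without wild type naive library 4). Gm11413, Ndst4, Pcdh9, Slit3, Lrrc38 and Gm13339 lost theirs in 4, 11, 12, 12, 12 and 13 of 16 fits. The oculomotor and Edinger-Westphal marker sum was 56.1, 234, 333 and 76.2 CPM in naive and 96.3, 175, 115 and 248 CPM in CFA libraries labelled RGS4 KO, while in wild type it was 54.3 to 85.8 in naive and 321 to 481 CPM in CFA libraries. The part of that marker difference in the interaction calls was not tested.

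**Figure D5:**
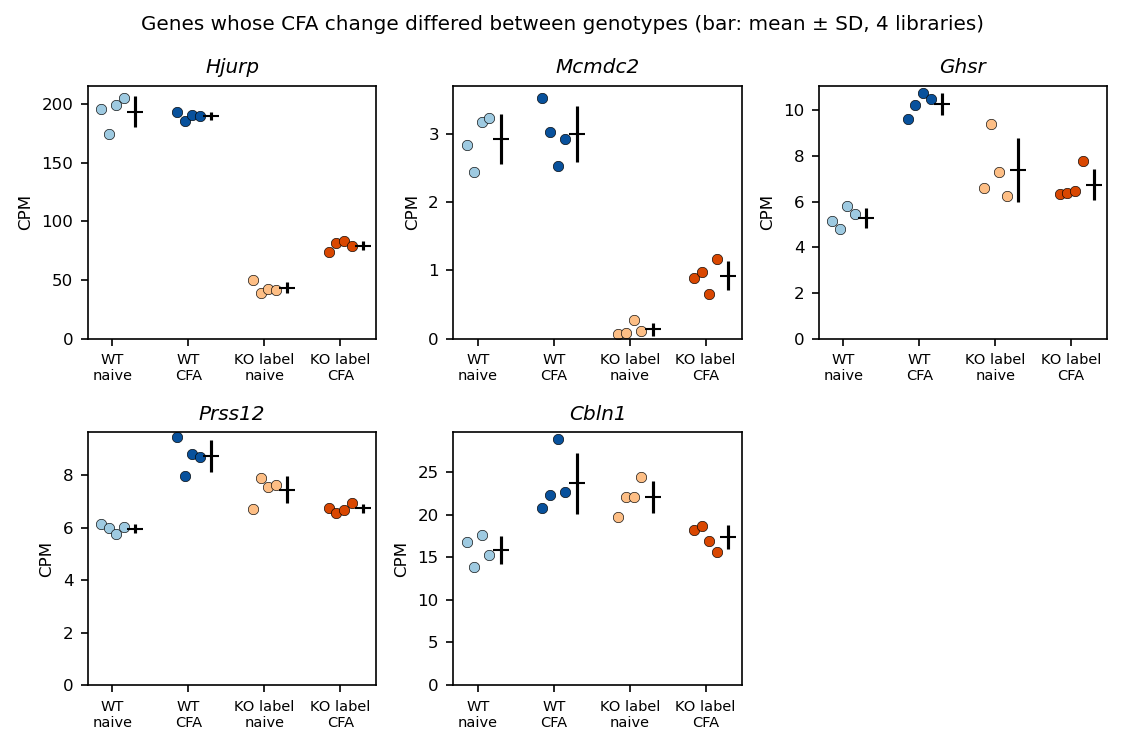
CPM of 5 genes with a called difference of the CFA change between genotypes, in all 16 libraries; points are libraries and bars are the mean ± SD of 4. Hjurp and Mcmdc2 rise in libraries labelled RGS4 KO, and Ghsr, Prss12 and Cbln1 are higher after CFA in wild type.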

How the data were processed

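Total RNA was taken with TRIzol and sequenced from TruSeq version 2 mRNA libraries, per the labels' protocols. The authors deposited raw whole-number counts per Ensembl gene without normalization. Build mm10, TopHat and DESeq2 are named, per the submitters' processing notes. Annotation release, counter and strand setting were not given in the sources used here, though the 5 summary lines of each table have the form HTSeq writes. Those lines (38.4% to 39.9% of listed reads in the 8 libraries) were left out.

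Groups came from the genotype and treatment labels. Genes kept by filterByExpr at a minimum count of 10 (18350 of 38924, holding 99.961% of counts) were scaled by TMM and fitted with edgeR 4.0.16 (robust quasi-likelihood, 1 mean per group over all 16 libraries, common biological coefficient of variation 6.1%). P-values are two-sided, with Benjamini-Hochberg adjustment. Replicates differed beyond sampling noise (chi-square per degree of freedom 3.55 to 13.7). Intervals cover counting error only. Symbols and positions came from GENCODE on mm10 (37607 IDs matched), promoters from RefSeq, and copies from blastn 2.17.0. The test was checked on simulated counts for 18204 genes.

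Comparisons, members and gene lists were chosen with earlier results of these data known. Named genes are called genes without overlap whose higher group averaged 1 CPM or more, the 10 lowest p in each direction, up to 4 members with the lowest p of each list, interaction calls, Rgs4 and Grm genes. The mean of Mcmdc2 in the higher group is below 1 CPM, and it enters by its p. Slc17a6, Tph2, Xist, Gm42418 and Rn7sk were named after their values were seen. Another interaction call is not reported here.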

Additional observations from a re-analysis of the deposited data

Results flagged for a closer look

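Among the genes named, 9 of 174 groups of 4 libraries (5.17%) held a library far from the other 3, and chance alone gives about 1 in 20. The low ones were naive library 8 for Rfx4 (26.3 CPM) and Mfsd2a (25.9 CPM), naive library 7 for Gm11410 (427 CPM), naive library 5 for Hmgcs1 (361 CPM), and CFA libraries 14 for Gpr17 (74.9 CPM), 16 for Hnrnpdl (178 CPM) and 15 for Ndst4 (14.2 CPM). The high ones were naive library 6 for Csrnp1 (4.67 CPM) and CFA library 16 for Ghsr (7.77 CPM).

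The CFA change differed between genotypes in 12 genes by the interaction test of edgeR. The log2 difference, labelled RGS4 KO minus wild type, was above 0 for Hjurp (0.894) and Mcmdc2 (2.95). Among those below 0 were Ghsr (-1.07), Prss12 (-0.685), Gm11413 (-1.41), Cbln1 (-0.915), Ndst4 (-0.51), Pcdh9 (-0.434), Slit3 (-0.495), Lrrc38 (-1.06) and Gm13339 (-0.41). Gm13339 is a copy of mt-Nd2, and Gm11413 is an antisense gene whose reads cannot be assigned by strand.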

How the results depend on the processing

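The 34 calls were 91 in DESeq2, 69 with an oligodendrocyte covariate, and 16 to 37 when 1 library was left out. After seeing the data 2 settings were added. Without naive libraries 7 and 8 there were 17 calls, and with a serotonin neuron covariate 23. The other 7 alternatives gave 25 to 43 (RLE and upper quartile factors, no filter, a filter of 1 CPM in 4 libraries, the 8 libraries alone, thinned counts, no robust estimation). Calls higher after CFA made up 52.9% of the 34, 64% with the 8 libraries alone, 71% with the oligodendrocyte covariate, 65.2% with the serotonin neuron covariate, and up to 75% (without CFA library 16) when 1 library was left out. The 12 interaction calls were 87 in DESeq2, 31 without a filter and 5 to 27 when 1 library was left out. The cause was not tested.

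Of the 34 calls, 7 held under all alternatives (Hjurp, Mcmdc2, Id2, Pde10a, Gm11410, Gm11512 and ENSMUSG00000094114). Of 84 named genes, 2 changed sign, none of them called. Grm2 had log2 values of 0.02099 with thinned counts, 0.01509 with the serotonin neuron covariate, and -0.06861 to 0.03358 (above 0 also at 0.0005338 and 0.0217) when 1 library was left out. Ghsr had -0.1937 to 0.014 when 1 library was left out, above 0 without naive library 6.

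No paired analysis was possible because library numbers run through the series and none is shared between groups. The naive libraries are the shallowest group, and changes of 1.2-fold were recovered in 42% of simulated cases, at a more lenient cutoff in unadjusted p than in these data.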

Other observations

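Separate ranges in the 2 groups were seen in 4 further genes, taken from different lists. Cacna1a, the pore subunit of P/Q-type channels, was at 142 to 161 CPM in naive and 163 to 177 CPM in CFA libraries (log2 0.15, adjusted p = 0.213), and the potassium channel gene Kcnh1 was at 31.6 to 34.9 and 35 to 39.8 CPM (log2 0.16, adjusted p = 0.259). Vwf, the endothelial clotting factor, was at 9.89 to 11.4 CPM in naive and 11.9 to 17.9 CPM in CFA libraries (log2 0.58, adjusted p = 0.197). Nlgn3, a postsynaptic adhesion gene that overlaps Gm21986, was at 48.6 to 50.5 and 43.2 to 44.3 CPM (log2 -0.17, adjusted p = 0.0877), with the same log2 value in wild type, where it was called (adjusted p = 0.017). None of the 4 was called here, and 4.29% of all genes had libraries that did not overlap.

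Crhr2, a receptor of the corticotropin-releasing family that raphe neurons express, was at 0.522 to 1.32 CPM in naive and 1.61 to 2.75 CPM in CFA libraries (log2 1.29, adjusted p = 0.353). All 14 serotonin neuron genes had values above 0, with a median log2 change of 0.51 against -0.78 in wild type. Of the 14, 0 were called, where 0.185% of all genes were.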
